A study of Homo sapiens and Mus musculus with 33 samples.

Results

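Class I histone deacetylases (HDACs) work inside multi-subunit corepressor complexes, and 9 genes for subunits of these complexes are described here. They are NCOR1 and TBL1XR1 of the NCoR complex, SIN3A and SIN3B of the SIN3 complex, RCOR1 and KDM1A of the CoREST complex, and MTA1, MTA2 and CHD4 of the NuRD complex. The genes were taken by name from the RNA table of HCT116 cells (9 of 35805 names) and, in mouse spelling, from that of the colon epithelium (9 of 25965 names). Every ChIP-seq peak in or within 2 kb of a gene interval was included, which gave 24 of 40266 peaks in HCT116 cells, 17 of 30338 H3K18cr peaks and 19 of 27035 H3K4me3 peaks in the colon. The rule names genes for their known membership of the complexes and uses no measured value, but the list was drawn up with earlier results of these data known.

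HCT116 is a line of human colon carcinoma cells, grown in DMEM with serum and antibiotics. The treatment lasted 18 h, with 5 µM MS275 (entinostat), an inhibitor of class I HDACs, or with DMSO, its solvent. Chromatin of these cells was immunoprecipitated with antibodies against histone H3 crotonylated (H3K18cr) or acetylated (H3K18ac) at lysine 18, in 3 libraries per mark and treatment with 1 input library per treatment, and RNA was sequenced in 4 libraries per treatment. The colon samples were epithelium of C57BL/6 mice without treatment, stripped with EDTA, in 2 H3K18cr libraries with 2 inputs, 3 H3K4me3 libraries with 1 input and 3 RNA libraries. By the methods, colons of 3 animals were combined for the H3K18cr ChIP, whereas a figure legend names 2 mice. Whether the 2 H3K18cr libraries came from separate animals is thus not settled. The age of the animals was not given in the sources used here.

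In the NCoR complex, NCOR1 is the scaffold that binds unliganded nuclear receptors and activates HDAC3, and TBL1XR1 is a WD40-repeat subunit that contacts histone tails and takes part in the exchange of corepressors. SIN3A and SIN3B are alternative scaffolds that bring HDAC1 and HDAC2 to transcription factors. RCOR1 couples HDAC1 and HDAC2 to KDM1A, a demethylase of histone H3 lysine 4, whereas MTA1 and MTA2 hold the deacetylase module of NuRD and CHD4 is its nucleosome-remodeling ATPase. The class I HDACs of these complexes remove acetyl groups and also crotonyl groups from histones, and both marks are found at the start sites of active genes.

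Because the ChIP-seq results below turn on the promoters, 4 promoter sequences are shown. They are the members with the largest falls of H3K18cr (SIN3A and TBL1XR1), a member whose promoter passed the main test, without a replicate block, for neither mark (KDM1A), and the member with the lowest RNA ratio of MS275 to DMSO (MTA2). Each is the 250 bases upstream of a RefSeq gene start of GRCh38.p14, written 5′ to 3′ on the strand of the gene, with no base of that RefSeq transcript. SIN3A lies at chr15:75455816-75456065 (minus strand), TBL1XR1 at chr3:177197483-177197732 (minus strand), KDM1A at chr1:23019218-23019467 (plus strand) and MTA2 at chr11:62601866-62602115 (minus strand). Capitals mark the CCAAT box, the GC box GGGCGG, the ETS-type word CCGGAAG or the TATA word TATAAA on either strand, and lower case marks all other bases.
SIN3A: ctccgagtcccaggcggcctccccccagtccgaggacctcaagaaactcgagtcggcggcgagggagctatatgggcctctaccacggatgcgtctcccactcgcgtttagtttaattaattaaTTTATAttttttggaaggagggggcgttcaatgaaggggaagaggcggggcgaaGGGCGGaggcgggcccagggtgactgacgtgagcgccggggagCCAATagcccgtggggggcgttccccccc
TBL1XR1: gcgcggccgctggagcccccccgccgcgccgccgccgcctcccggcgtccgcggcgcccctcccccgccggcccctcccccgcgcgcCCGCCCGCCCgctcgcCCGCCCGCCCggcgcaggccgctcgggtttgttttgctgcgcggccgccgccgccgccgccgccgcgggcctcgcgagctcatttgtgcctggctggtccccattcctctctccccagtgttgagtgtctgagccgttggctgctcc
KDM1A: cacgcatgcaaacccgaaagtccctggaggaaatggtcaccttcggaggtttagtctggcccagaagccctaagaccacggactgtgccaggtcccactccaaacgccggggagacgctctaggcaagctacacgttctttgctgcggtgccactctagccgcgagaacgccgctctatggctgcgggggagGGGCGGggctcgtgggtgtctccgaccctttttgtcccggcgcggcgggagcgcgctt
MTA2: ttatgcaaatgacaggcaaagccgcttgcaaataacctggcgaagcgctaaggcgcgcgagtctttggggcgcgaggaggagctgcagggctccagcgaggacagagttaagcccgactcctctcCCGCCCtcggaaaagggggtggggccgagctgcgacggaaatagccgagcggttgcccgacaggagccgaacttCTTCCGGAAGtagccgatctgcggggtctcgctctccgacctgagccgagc

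SIN3A was the only member with TATAAA, read on the opposite strand, and it held GGGCGG and CCAAT once each. TBL1XR1 held 4 overlapping copies of GGGCGG on the opposite strand in a window of 81.2% GC, the highest GC share of the 9. In MTA2 both strands of CCGGAAG overlapped in 1 palindromic run close to the start, and KDM1A held 1 copy of GGGCGG. MTA2 also held 1 copy of GGGCGG on the opposite strand. Among all 35116 windows of this length, CCAAT was found in 32.0%, GGGCGG in 42.6%, CCGGAAG in 8.52% and TATAAA in 10.7%, and the median GC share was 58%. The matches describe letters and not bound sites. For NCOR1, CHD4 and SIN3B the RefSeq start lay 2651, 1025 and 33874 bp inside the start used by the deposited table, and the SIN3B window was outside its promoter peak.

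The HCT116 RNA libraries held 35608533 to 53415604 counts and the colon RNA libraries 8166406 to 10707901. Both libraries numbered 3 stood apart, with 9.28% (DMSO) and 10.3% (MS275) of counts on mitochondrial genes against 1.57% to 3.19% in the other 6. Reads in peaks ranged from 2236551 to 5730094 in the HCT116 ChIP libraries and were 1550122 and 1374609 in the inputs. The tissue labels were checked against fixed markers. In HCT116 cells 7 of 8 epithelial markers exceeded 1 CPM (counts scaled to the library total), their sum was 2980 to 4518 CPM, and 1 of 4 immune and 1 of 5 stromal markers exceeded it, with sums of 4.58 to 11.7 and 5.97 to 17.9 CPM. PTPRC, CD3E and CD79A were below 1 CPM in every HCT116 library. In colon 8 of 8 epithelial markers exceeded 1 CPM and summed to 6830 to 8059 CPM, while 4 of 5 immune markers (24.5 to 39.7 CPM in sum) and 5 of 5 stromal markers (15.6 to 19.7 CPM) also exceeded 1 CPM. CDKN1A, the cell cycle inhibitor induced by HDAC inhibitors in many cells, had a log2 fold change of 0.28 (SE 0.180, n = 4 per group, edgeR adjusted p = 0.870), and of 0.28 once the replicate number was added as a block (edgeR adjusted p = 0.0167).

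All 9 members were transcribed in HCT116 cells, and the NuRD subunits had the highest levels. Levels are given as CPM per kb of exon (the union of all exons of a gene), as mean ± SD of the 4 DMSO libraries. CHD4 had 45.1 ± 4.51, MTA2 29.6 ± 3.73 and MTA1 24.4 ± 1.81 CPM per kb, which placed them at percentiles 94.5, 91.0 and 88.9 of the 15863 genes with counts. KDM1A (15.5 ± 1.16) and TBL1XR1 (14.1 ± 3.54) followed and did not differ beyond their spread. SIN3A (8.22 ± 2.15) and RCOR1 (7.96 ± 2.51) did not differ beyond theirs, SIN3B had 4.66 ± 0.204, and NCOR1 was lowest with 1.76 ± 0.741 CPM per kb, at percentile 44.8. The order depends on the length used. Per kb of the longest transcript, KDM1A (49.1) and MTA1 (58.8) both exceeded MTA2 (41.0), since the exon union of KDM1A spans 18325 bp and its longest transcript 5786 bp. The RNA is a measure of whole cultures or tissue, in which fewer cells of a type and less RNA per cell cannot be told apart.

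In the colon epithelium Mta2 and Chd4 were again the highest members, with 50.1 ± 3.34 and 44.8 ± 4.62 CPM per kb of exon (n = 3 mice), and their spreads overlapped. Ncor1 followed with 22.3 ± 1.04 CPM per kb, at percentile 84.0 of 14941 genes, whereas NCOR1 was last of the 9 in HCT116 cells. It had 281, 301 and 276 CPM in the 3 mice against 19.4 to 44.6 CPM in the DMSO libraries of HCT116 cells. Human NCOR1 shares sequence with its pseudogenes, and the part of read mapping in this contrast was not tested. Rcor1 (20.7 ± 3.12), Mta1 (20.2 ± 1.82) and Sin3b (17.4 ± 1.16) came next. The spreads of Rcor1 and Mta1 overlapped each other and those of Ncor1 and Sin3b. Sin3a (14.0 ± 1.06), Kdm1a (13.8 ± 1.98) and Tbl1xr1 (12.3 ± 0.342) were lowest, and neighbours in this order did not differ beyond their spread. Here too the order depends on the length, since per kb of the longest transcript Kdm1a (23.6) exceeded Mta1 (22.2) and Rcor1 (20.7), and Sin3b (31.1) was next to Ncor1 (31.6). Species, tables and depth differ between the colon and HCT116 data, so the levels were set side by side without a test.

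The next comparison asked whether class I HDAC inhibition changed the RNA of the complexes' own subunits. None of the 9 members passed the test (0 of 9; edgeR quasi-likelihood test, Benjamini-Hochberg over 14961 genes), and 1 of 14961 genes did (0.00668%). At an unadjusted p under 0.05 there were 987 of 14961 genes and 1 member, MTA2, and DESeq2 called 0 members and 140 genes (0.938% of the 14931 with an adjusted p). The median log2 fold change of the members was 0.02, against 0.01 over all genes, and the range was -0.39 to 0.25. The groups of 4 libraries overlapped for all 9 members, where 5.07% of genes did not overlap.

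MTA2, a scaffold of the NuRD deacetylase module, had the largest difference. Its RNA was at 126, 148, 109.7 and 122 CPM in the DMSO libraries 1 to 4 and at 112, 94.9, 85.8 and 96.8 CPM in the MS275 libraries 1 to 4. Each MS275 library was below the DMSO library of its number (4 of 4), and the groups met between DMSO replicate 3 and MS275 replicate 1. The share of all genes with the same direction in 4 of 4 pairs was not counted. The log2 fold change was -0.39 (SE 0.146, n = 4 per group, edgeR adjusted p = 0.611). With the replicate number as a block MTA2 fell by 0.39 (SE 0.0803, edgeR adjusted p = 0.00783), as 1 of 9 members in a fit that called 14.4% of all genes and 6.55% as lower. Without both libraries numbered 3 the value was -0.41 (edgeR adjusted p = 0.265, 0.0531% of genes called), and -0.41 with the block added (adjusted p = 0.00754, 17.2% of genes called).

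RCOR1, the CoREST scaffold, had 50.1, 54.5, 28.0 and 64.8 CPM in DMSO and 70.3, 64.7, 30.3 and 71.8 CPM in MS275. It was higher with MS275 in 4 of 4 pairs, and replicate 3 was the lowest library of each group. The log2 fold change was 0.25 (SE 0.261, edgeR adjusted p = 0.936) and 0.24 with the block (edgeR adjusted p = 0.107). Leaving out 1 library gave 0.084 to 0.43. MTA1, the paralog of MTA2, had 155, 183, 164 and 177 CPM in DMSO and 147, 160.1, 138 and 168 CPM in MS275. It was lower with MS275 in 4 of 4 pairs, with overlapping groups, a log2 fold change of -0.16 (SE 0.138, edgeR adjusted p = 0.914) and an adjusted p of 0.117 with the block. Neither gene therefore passed in either fit, and the share of all genes with the same direction in 4 of 4 pairs was not counted.

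NCOR1, TBL1XR1 and SIN3A varied with the libraries numbered 3 far more than with treatment. NCOR1 RNA was at 22.6, 23.1, 44.6 and 19.4 CPM in DMSO and at 18.8, 21.6, 53.3 and 21.1 CPM in MS275. The mean of both libraries numbered 3 was 2.32 times that of the other 6, and its log2 fold change of 0.07 (SE 0.439) turned to -0.11 without them and to -0.01 with the block. TBL1XR1 was at 179.8, 187, 103 and 190.4 CPM in DMSO and 191, 192, 95.8 and 201 CPM in MS275, so that the libraries numbered 3 were at 0.523 times the others. For SIN3A the libraries of DMSO held 108, 119.6, 65.9 and 128 CPM and those of MS275 121, 121, 58.8 and 130.1 CPM, with a ratio of 0.513. RCOR1 had a ratio of 0.465, and the other 5 members lay between 0.839 and 0.913. The part of the mitochondrial share or of any other property of these libraries in the ratios was not tested. NCOR1 shares sequence with its pseudogenes and overlaps PIGL and TTC19 on the opposite strand, and TBL1XR1 overlaps TBL1XR1-AS1. SIN3A, KDM1A, MTA1 and CHD4 each overlap 1 opposite-strand gene known only by an identifier. Whether counting used strand is not stated, so reads of such partners cannot be told apart.

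The log2 fold changes were 0.02 (SE 0.218) for TBL1XR1, 0.01 (SE 0.228) for SIN3A, -0.06 (SE 0.161) for SIN3B, 0.02 (SE 0.140) for KDM1A and 0.03 (SE 0.146) for CHD4, with edgeR adjusted p-values from 0.986 to 1.00. SIN3B, the second SIN3 scaffold, stayed between 33.4 and 47.0 CPM in all 8 libraries, KDM1A between 254 and 328 CPM and CHD4 between 511 and 665 CPM. TBL1XR1 and MTA2 did not overlap between treatments once both libraries numbered 3 were left out, a pattern shown by 18.6% of genes.

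**Figure D1:**
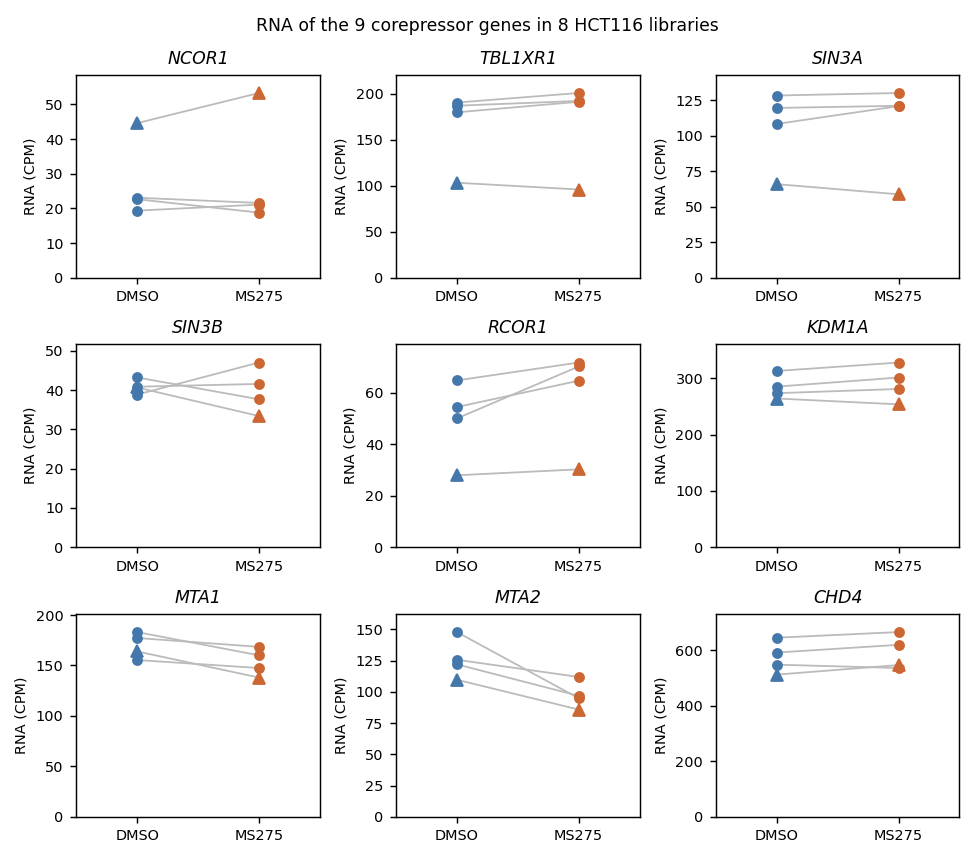
RNA of the 9 members in CPM (vertical axis of each panel) in the 4 DMSO and 4 MS275 libraries of HCT116 cells, 1 point per library, with triangles for the libraries numbered 3 and grey lines that join libraries of the same number. Both libraries numbered 3 lie apart for NCOR1 (44.6 and 53.3 CPM), TBL1XR1 (103 and 95.8 CPM), SIN3A and RCOR1, and the MTA2 points of MS275 are below the DMSO point of the same number.

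**Figure D2:**
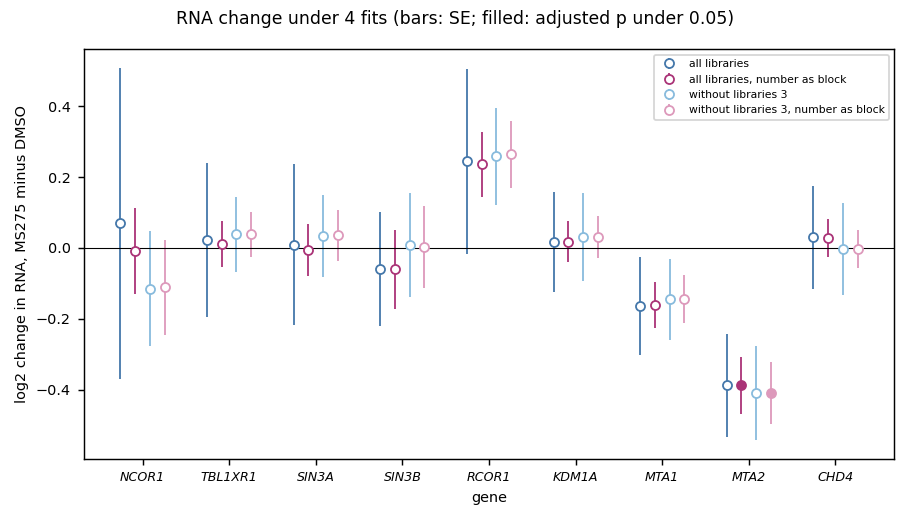
Log2 fold change of RNA with MS275 against DMSO for each member, with SE as bars, in fits without a block or with the replicate number as one, each with all libraries and without those numbered 3 (filled points have an adjusted p under 0.05). MTA2 lies at -0.39 in both fits of all libraries, with an SE of 0.146 and 0.0803 and a filled point for the block, and NCOR1 changes its sign from 0.07 to -0.01.

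The other subunits of the complexes were taken from a list of known members, of which 44 were tested. None was called without the block (0 of 44), and by DESeq2 also 0 of 44, with 2 at an unadjusted p under 0.05 in edgeR. The median log2 fold change was 0.11 over 4 other NCoR subunits, -0.10 over 16 SIN3, 0.12 over 8 CoREST and -0.23 over 7 NuRD subunits, and -0.07 over all 44. With the block 3 rose, namely CORO2A (0.80, edgeR adjusted p = 0.00224) of NCoR, the zinc finger protein ZNF217 (0.42, adjusted p = 0.00956) of CoREST and GATAD2B (0.37, adjusted p = 0.00938) of NuRD. The 3 that fell were the corepressor CTBP1 (-0.41, edgeR adjusted p = 0.00270), the NuRD subunit MBD3 (-0.47, adjusted p = 0.00276) and CDK2AP1 (-0.29, adjusted p = 0.0290). These are 6 of 44 subunits in the fit in which 14.4% of all genes were called. With the block and without both libraries numbered 3, CDK2AP1 no longer passed (edgeR adjusted p = 0.0631), while GSE1 of CoREST rose (0.27, adjusted p = 0.0223) and BRMS1 of the SIN3 complex fell (-0.32, adjusted p = 0.0415). The deacetylases HDAC1 (0.06, edgeR adjusted p = 0.539), HDAC2 (-0.08, adjusted p = 0.464) and HDAC3 (0.14, adjusted p = 0.268) did not pass in the block fit of all libraries.

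Among the members and the other subunits, the RNA whose pattern over the 8 libraries lay nearest to TBL1XR1 was SIN3A, and the reverse, with a root mean square difference of 0.0461 on the log2 scale after each gene was centred. Without the libraries numbered 3 this distance was 0.0486, and TBL1XR1 lay nearest to RBBP7 (0.0433) and SIN3A to HDAC1 (0.0411), with the other member second in each case. The RNA of TBL1XR1 varied by only 0.0301 around its own mean over these 6 libraries, less than its distance to RBBP7, so that this neighbour describes a nearly flat pattern, whereas SIN3A varied by 0.0621. CHD4 lay nearest to KDM1A with all 8 libraries (0.0983) and with 6 (0.104). MTA2 lay nearest to its paralog MTA3 with 8 libraries (0.133) and to CTBP1 with 6 (0.111). All these distances are descriptions over libraries that share treatment and preparation.

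Each of the 9 members had a peak at its start in HCT116 cells. Besides these 9 promoter peaks, which overlap 1 kb on either side of the gene start, the 24 peaks comprised 8 in introns, 1 over an exon and intron of NCOR1, 1 at an internal start of SIN3A, 4 at the start of a neighbouring gene (MAN2C1, CRIP2, TUT1 and NOP2) and 1 in the flank of NCOR1. The promoter peaks of NCOR1, MTA2 and KDM1A also hold the starts of PIGL, EML3 and TEX46, from which they cannot be told apart. The promoter peaks were 2250 to 5400 bp wide with a median of 4950 bp, against 2550 bp over the 12833 peaks at protein-coding starts. In DMSO the log2 ratio of H3K18cr to input ranged from 1.69 to 3.04 over the 9 promoters (median 2.14, against 1.63 over peaks at starts), and that of H3K18ac from 1.81 to 3.15 (median 2.22 against 1.67). With MS275 the members' medians were 1.45 for H3K18cr and 1.64 for H3K18ac, against 1.16 and 1.15 over peaks at starts.

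The comparison of treatments asked how the marks changed when class I HDACs were inhibited. The study reports more histone crotonylation with MS275 by western blot. By ChIP-qPCR it reports more H3K18cr at promoters and repeats, of which none belonged to a member. The ChIP-seq values below are relative, because each library was scaled to a common size and no spike-in is described in the sources used here. A fall below is thus a lower share of a library's reads in a peak, and a change in the total amount of a mark, or in its amount at that peak, cannot be read from it. In this relative measure H3K18cr fell at 10 of the 24 member peaks and rose at none (limma on the deposited log2 values, Benjamini-Hochberg over 39011 peaks), where 15.3% of all peaks were called and 15% as lower. At the promoters 6 of 9 fell, in SIN3A, TBL1XR1, SIN3B, NCOR1, MTA2 and RCOR1, where 37.7% of 12774 peaks at protein-coding starts were called and 37.6% as lower. The median log2 fold change of the 9 promoters was -0.72, against -0.54 over peaks at starts. These sets were not matched for width or reads. Of the intron and exon peaks 0 of 9 passed, with 2 at an unadjusted p under 0.05, as were 11810 of all peaks. EdgeR called 0 of them, with 1 at an unadjusted p under 0.05, and DESeq2 gave none of them an adjusted p. In all 9 promoter peaks the highest MS275 library lay below the lowest DMSO library, which was so in 62% of peaks at starts and 30.6% of all peaks.

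The call depended on scaling and on single libraries. With TMM factors in place of the authors' scaling, which moved the median of all peaks from -0.21 to 0.04, limma called 0 of 24 member peaks and 0 of 39011 peaks, with 12 member peaks and 10271 of all peaks at an unadjusted p under 0.05. EdgeR with TMM on the reads called 10 of 24 (14% of all peaks) and DESeq2 7 of the 14 with an adjusted p (22.1% of 15565 such peaks), and edgeR called 934 peaks higher and 4511 lower, against 136 and 5851 by limma. Leaving out DMSO replicate 1, DMSO replicate 2, MS275 replicate 1 or MS275 replicate 2 gave 0 of 24 and no call among all peaks, with promoter medians of -0.62, -0.64, -0.74 and -0.72 and all 9 promoters below 0, whereas 13 (21.9% of all peaks) and 9 (14.8%) were called without DMSO or MS275 replicate 3. All 9 promoter values stayed below 0 with each scaling, with a median of -0.47 by TMM.

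SIN3A, a SIN3 scaffold, had the largest fall of H3K18cr at its promoter peak (chr15:75451951-75457350). The values were 596, 572 and 606 scaled reads (reads multiplied by the library factor of the authors) in DMSO replicates 1 to 3 and 277, 239 and 302 in MS275. The groups were far apart, while the inputs were at 99.1 scaled reads in each treatment. H3K18cr fell by 1.12 on the log2 scale (SE 0.176, n = 3 per group, limma adjusted p = 0.0163). At a second peak over an internal start of SIN3A it had 149, 153 and 213 scaled reads in DMSO and 87.7, 80.7 and 122 in MS275. These groups were also apart, and the peak fell by 0.83 (SE 0.222, limma adjusted p = 0.0310).

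TBL1XR1, the WD40 subunit of NCoR whose promoter window is the richest in GC, came next, with 675, 613 and 492 scaled reads of H3K18cr in DMSO and 256, 238 and 368 in MS275 (chr3:177195001-177200100). Every MS275 library was below the lowest DMSO library, and H3K18cr fell by 1.06 (SE 0.218, limma adjusted p = 0.0168). None of its 7 intron peaks passed the test. They held 9.28 to 81.4 scaled reads per library, against 238 to 675 at the promoter, so changes there would be less detectable at this depth.

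At the NCOR1 promoter (chr17:16213501-16218450) H3K18cr was at 369, 359 and 238 scaled reads in DMSO and 195, 178 and 201 in MS275. DMSO replicate 3 was near the MS275 libraries but above them all, and the peak fell by 0.73 (SE 0.208, limma adjusted p = 0.0390). SIN3B (chr19:16828651-16830900), with the narrowest promoter peak, had 139, 120.1 and 145 scaled reads in DMSO and 74.2, 75.1 and 84.2 in MS275. The groups were apart, and H3K18cr fell by 0.79 (SE 0.177, limma adjusted p = 0.0189).

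RCOR1 (chr14:102589651-102594750), the CoREST scaffold, had 556, 468 and 464 scaled reads of H3K18cr in DMSO and 295, 309 and 306 in MS275, so the MS275 libraries lay close together and well below DMSO. It fell by 0.71 (SE 0.174, limma adjusted p = 0.0236). KDM1A, its demethylase partner (chr1:23018551-23021400), had 200, 198 and 156 scaled reads in DMSO and 132, 149 and 81.4 in MS275. DMSO replicate 3 and MS275 replicate 2 nearly met, and the log2 fold change of -0.65 (SE 0.240) had a limma adjusted p of 0.0893. Leaving out 1 library gave -0.83 to -0.39, with limma adjusted p-values from 0.0722 to 0.227. With the replicate number as a block, in a fit that called 16.1% of all peaks, the adjusted p was 0.0431.

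MTA2 (chr11:62598451-62603400) was, with all libraries, the NuRD member whose promoter passed the test. It had 398, 423 and 312 scaled reads of H3K18cr in DMSO and 233, 217 and 236 in MS275, without overlap, and fell by 0.72 (SE 0.185, limma adjusted p = 0.0279). MTA1 (chr14:105418801-105421950) had 244 to 328 scaled reads in DMSO and 169 to 191 in MS275, with a log2 fold change of -0.57 (SE 0.189, limma adjusted p = 0.0634). For CHD4 (chr12:6605401-6609900), the remodeling ATPase and the most abundant member RNA, the values were 259.9 to 362 and 198 to 229 scaled reads, with a log2 fold change of -0.49 (SE 0.189, limma adjusted p = 0.106). Without DMSO replicate 3 both passed (limma adjusted p = 0.0453 for MTA1 and 0.0474 for CHD4), among 8 of 9 promoters, in a fit that called 51% of peaks at protein-coding starts.

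**Figure D3:**
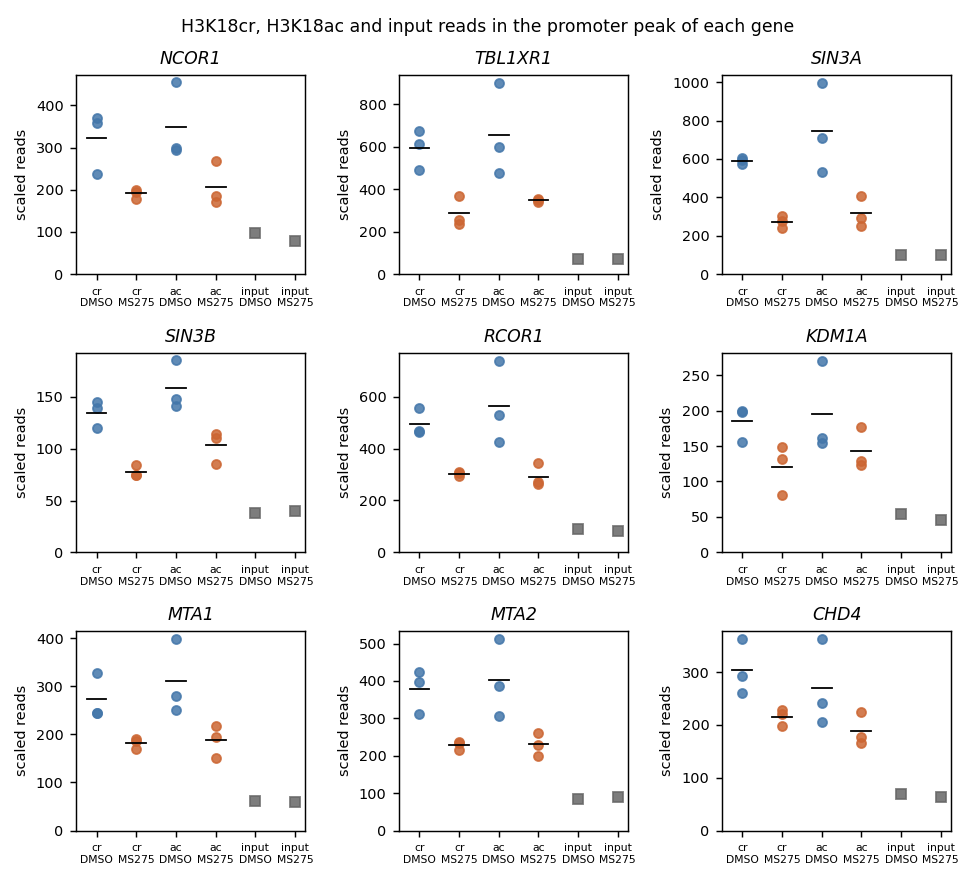
Scaled reads in the promoter peak of each member (vertical axes) for H3K18cr and H3K18ac in HCT116 cells, 1 point per library and a line at the mean of 3 DMSO or 3 MS275 libraries, with the input libraries as grey squares. For H3K18cr every MS275 point is below every DMSO point in all 9 panels, and SIN3A drops from 572 to 606 scaled reads to 239 to 302.

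In the same relative measure, H3K18ac fell at 9 of the 24 member peaks and rose at none (limma, Benjamini-Hochberg over 39065 peaks), where 12.8% of all peaks were called and 12.5% as lower. At the promoters 4 of 9 fell, in SIN3A, RCOR1, TBL1XR1 and MTA2, where 33.2% of peaks at protein-coding starts were called and 33.1% as lower. The members' promoter median was -0.75, against -0.60 over peaks at starts. With TMM factors in limma these medians were -0.50 and -0.34, and the sets were not matched for width or reads. In 7 of 9 promoter peaks the groups did not overlap and MS275 was the lower, with KDM1A and CHD4 as the exceptions, against 50.1% of peaks at starts and 23.5% of all peaks. DMSO replicate 3 was the highest H3K18ac library at all 9 promoters, and without it 4 of 24 member peaks and 3.05% of all peaks were called. The count was 12 without DMSO replicate 1 (19.7% of all peaks), 5 without DMSO replicate 2 (7.95%), 13 without MS275 replicate 1 (18.8%), 4 without MS275 replicate 2 (4.24%) and 4 without MS275 replicate 3 (4.82%), so the members' count moved with that of all peaks.

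At the SIN3A promoter H3K18ac was at 532, 709 and 995 scaled reads in DMSO and 409, 252 and 292 in MS275. The DMSO libraries were spread widely but all above MS275, and the peak fell by 1.21 (SE 0.273, n = 3 per group, limma adjusted p = 0.00555), a call that was kept without any 1 of the 6 libraries. The internal start of SIN3A fell by 1.23 (SE 0.258, limma adjusted p = 0.00436) and the MAN2C1 start beyond its far end by 1.16 (SE 0.265, limma adjusted p = 0.00589). RCOR1 had 426, 528 and 736 scaled reads in DMSO and 344, 271 and 262 in MS275. Its groups did not overlap and it fell by 0.92 (SE 0.264, limma adjusted p = 0.0194).

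TBL1XR1 had 477, 597 and 899 scaled reads of H3K18ac in DMSO and 353, 351 and 337 in MS275, with a tight MS275 group below DMSO, and fell by 0.87 (SE 0.265, limma adjusted p = 0.0266). MTA2 had 307, 388 and 512 scaled reads in DMSO and 261, 229 and 200.2 in MS275, and fell by 0.78 (SE 0.261, limma adjusted p = 0.0430). The 3 calls of RCOR1, TBL1XR1 and MTA2 were lost without DMSO replicate 3 (limma adjusted p = 0.116, 0.170 and 0.201), without MS275 replicate 2 (adjusted p = 0.0831, 0.0798 and 0.126) and without MS275 replicate 3 (adjusted p = 0.0924, 0.0914 and 0.202), and those of TBL1XR1 and MTA2 also without DMSO replicate 2 (adjusted p = 0.0542 and 0.104). In the fit with a replicate block, which called 8.29% of all peaks, TBL1XR1 (adjusted p = 0.0562) and MTA2 (adjusted p = 0.0928) did not pass. NCOR1 (-0.75, limma adjusted p = 0.0587), MTA1 (-0.71, adjusted p = 0.0676) and SIN3B (-0.61, adjusted p = 0.112) did not pass, although their groups did not overlap.

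CHD4 had 206, 241 and 363 scaled reads of H3K18ac in DMSO and 225, 177 and 166 in MS275, and the groups overlapped (-0.49, SE 0.266, limma adjusted p = 0.255). KDM1A had 154, 161 and 270.3 scaled reads in DMSO and 177, 124 and 129 in MS275, also with overlap (-0.42, SE 0.269, limma adjusted p = 0.359). Leaving out 1 library gave -0.66 to -0.25 for CHD4 and -0.58 to -0.16 for KDM1A. With TMM factors the median of all H3K18ac peaks moved from -0.19 to 0.06, limma called 6 of the 24 member peaks (10.6% of all peaks), edgeR 11 (21.9%) and DESeq2 11 of the 17 with an adjusted p (26.1% of 21645 such peaks), and all calls on members were lower. EdgeR with TMM called 1921 peaks higher and 6640 lower among all peaks, against 142 and 4866 by limma.

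The peaks inside the genes held few reads and were not tested against the promoters. For H3K18cr the 9 intron and exon peaks had a median log2 fold change of -0.05 with the authors' scaling, and 0.21 with TMM in edgeR, where 6 of 9 were above 0. For H3K18ac their median was -0.30 with the authors' scaling, and -0.05 with TMM in edgeR, where 4 of 9 were above 0. With the authors' scaling 0 of 9 were called, with 3 at an unadjusted p under 0.05 in limma, as were 10050 of all peaks. EdgeR called 0 of them, with 0 at an unadjusted p under 0.05, and DESeq2 gave 2 of them an adjusted p and called 0. Leaving out DMSO replicate 1, MS275 replicate 1 or MS275 replicate 3 gave 1, 2 and 1 calls among the 9, all lower, in fits that called 19.7%, 18.8% and 4.82% of all peaks. The 4 peaks at the starts of neighbouring genes had medians of -0.78 for H3K18cr (3 of 4 called) and -1.01 for H3K18ac (4 of 4 called), beside -0.54 (37.7% called) and -0.60 (33.2% called) over peaks at protein-coding starts.

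**Figure D4:**
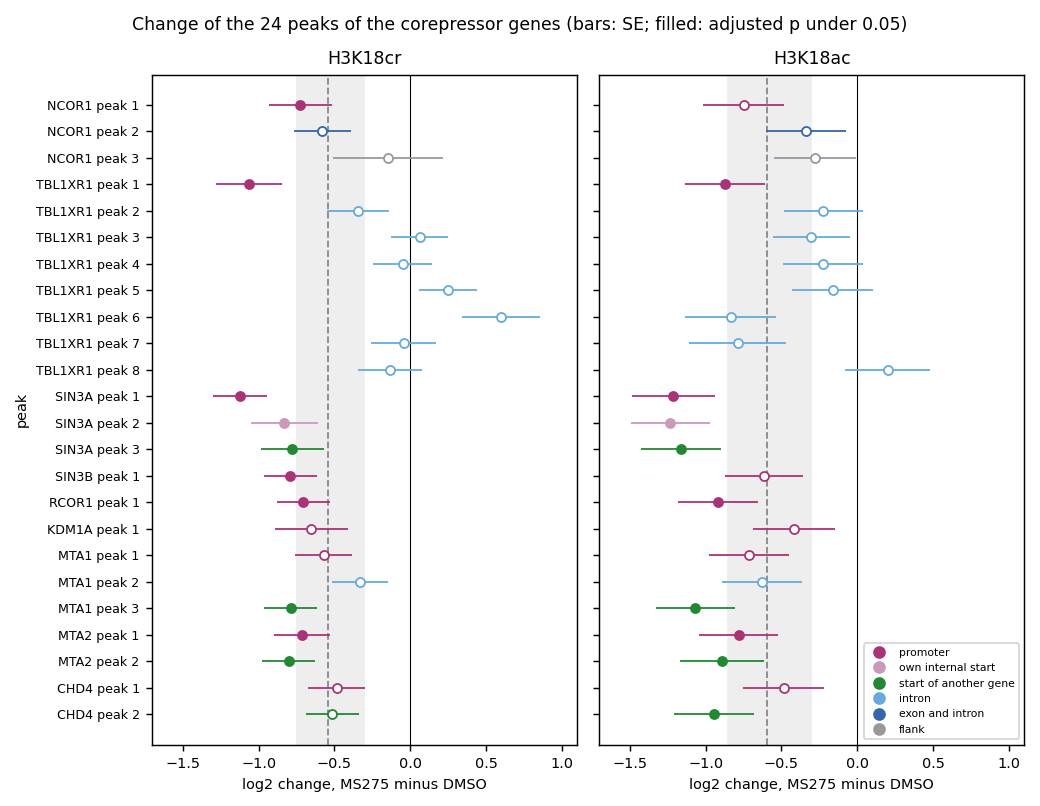
Log2 fold change with MS275 against DMSO (limma, bars are SE) at the 24 member peaks for H3K18cr and H3K18ac, with colours for the position of the peak and filled points for an adjusted p under 0.05. The dashed line and grey band are the median and the quartiles over all peaks at protein-coding starts. Promoter peaks and starts of neighbouring genes lie between -0.42 and -1.21, and intron peaks are spread around 0 for H3K18cr.

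Whether MS275 acted unequally on the 2 marks at these peaks was tested as a difference of effects. None of the 24 member peaks passed (0%; limma, 0 of 39080 peaks), with 1 member peak and 992 peaks at an unadjusted p under 0.05, and edgeR also called 0. At the promoters the difference (H3K18cr minus H3K18ac) ranged from -0.23 for KDM1A (SE 0.372) to 0.21 for RCOR1 (SE 0.313), which is within 1 SE of 0 in each of these. Its sign depended on the libraries, since all 9 promoters were above 0 without replicate 1 (median 0.42) and all 9 below 0 without replicate 3 (median -0.37). The medians over all peaks at protein-coding starts moved in the same way, to 0.40 and -0.29. The 1 peak was in an intron of TBL1XR1 (chr3:177142351-177143100), with a log2 fold change of 0.59 for H3K18cr and -0.84 for H3K18ac and a difference of 1.43 (SE 0.453, limma adjusted p = 1.00). It held at most 32.8 scaled reads in any library. Leaving out 1 library gave 0.31 to 0.82 for H3K18cr and -1.06 to -0.39 for H3K18ac.

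In the mouse colon epithelium all 9 members had a promoter peak in each mark. The log2 ratio of H3K18cr to input ranged over the 9 promoters from 0.96 to 2.15 in library 1 (median 1.76, against 1.36 over 11435 peaks at starts) and from 1.61 to 2.84 in library 2 (median 2.31 against 1.68). Tbl1xr1 (2.06 and 2.44) and Rcor1 (2.15 and 2.34) were high in both libraries, and Mta1 (1.84 and 2.84) highest in library 2. Sin3a was at 1.09 and 1.69, at a mean percentile of 37.3 among peaks at starts. Mta2 was at 0.96 in library 1 and 2.31 in library 2, the widest gap between libraries among the 9. The height of these ratios depends on the scaling. With each library scaled by its total reads in peaks, the members' median of the mean ratio went from 1.93 to 0.48 for H3K18cr, where Sin3a was at -0.06, and from 3.15 to 0.85 for H3K4me3.

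H3K4me3, a mark of active gene starts, was above the median of 14457 peaks at starts for all 9 members in each of the 3 libraries. The members' medians were 2.33, 3.28 and 3.69 on the log2 scale, against 1.77, 2.50 and 2.88. Rcor1 was highest, with 3.04, 3.95 and 4.43, at a mean percentile of 99.1. Mta1 was lowest in libraries 1 and 2 (2.00 and 2.82) and Sin3a in library 3 (3.40). The 3 ratios share 1 input library and differ between libraries for all members, so levels are comparable within a library only. The peaks inside the genes had medians of 1.01, 1.25 and 1.28.

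**Figure D5:**
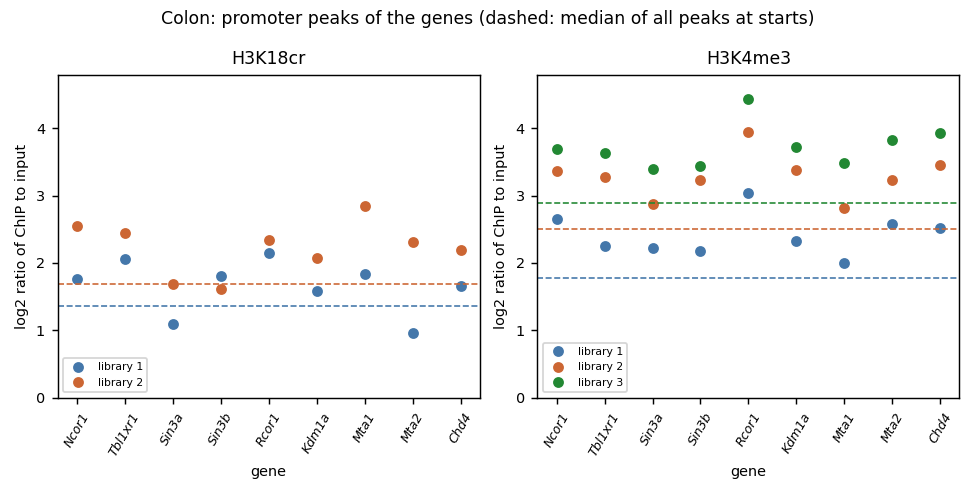
Log2 ratio of ChIP to input at the promoter peaks of the 9 members in mouse colon epithelium for H3K18cr (2 libraries) and H3K4me3 (3 libraries), with the median of all peaks at protein-coding starts for each library. All H3K4me3 points of members are above the median of their library, and for H3K18cr 7 of 9 are in library 1 and 8 of 9 in library 2.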

How the data were processed

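The authors deposited raw, unnormalized RNA counts for each gene, made with SEQMONK; trimming with Trim Galore 0.4.2 and mapping are described for mouse (HiSat2), while the submitters' notes name TopHat2 2.0.12, and the mapper of the HCT116 reads and the use of strand in counting are not given in the sources used here. ChIP-seq reads were mapped with Bowtie2 to GRCh38 or GRCm38 (2.2.5 in the submitters' notes, another version in the methods), and each table has 1 list of MACS peaks for all its libraries. Colon tables hold a signal, read counts that the authors scaled to the largest library. The HCT116 table holds the deposited log2 of such values, with 0.9 read in place of 0; 100% of values were whole reads (tolerance 0.02) times 1 factor per library, and these reads served the count tests.

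RNA was tested with edgeR 4.0.16 (quasi-likelihood, TMM, filterByExpr) and peaks with limma 3.58.1 on the log2 values of those peaks that averaged 10 reads or more, in R 4.3.3, with Benjamini-Hochberg adjustment over all features and a call at an adjusted p under 0.05. All 9 genes and all 24 peaks passed the filters on low values. DESeq2 1.42.0, TMM scaling, other filters, a replicate block and leaving out libraries were alternatives, and leaving out both libraries numbered 3, and edgeR for the difference between marks, were chosen after seeing the data. Ratios in colon used a pseudocount of 1 scaled read and no test. Scripts were tested on simulated data. Members, lists and tests were chosen with earlier results of these data known. Named other subunits are those called in a fit or nearest to a member, and HDAC2, named after its values were seen. Of the listed subunits, 1 is not reported here.

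RNA of same-numbered DMSO and MS275 libraries deviated together from the group means (correlations 0.226, 0.151, 0.433 and 0.460 over genes), so the block is given where it changes a call, although DMSO 2 with MS275 4 (0.239) and DMSO 4 with MS275 2 (0.219) also correlated; the pairing comes from these correlations, not from the labels. The methods call the RNA samples biological replicates. For HCT116 ChIP they state 2 biological replicates with technical triplicates, in a passage on qPCR, and 2 replicates for H3K18cr, whereas a legend gives n = 3 and 3 libraries per group were deposited. Whether these are separate cultures is thus not settled, and p-values there measure the spread between libraries, which may be technical.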

Additional observations from a re-analysis of the deposited data

Results flagged for a closer look

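In groups of 4 RNA libraries, 6 of 18 groups of members had a library far from the other 3 (by Dixon's ratio of gap to range), where chance gives about 1 in 20. Each was a library numbered 3. Over all genes tested, 7.01% of 29922 such groups had one, and in 4.89% it was a library numbered 3. The members were chosen by name, so the gap between their count and this share was not tested. NCOR1 was highest in replicate 3 with 44.6 CPM in DMSO and 53.3 CPM in MS275. TBL1XR1 was lowest there with 103 CPM in DMSO and 95.8 CPM in MS275. SIN3A with 58.8 CPM and RCOR1 with 30.3 CPM were lowest in MS275 replicate 3. The same libraries had mitochondrial shares of 9.28% and 10.3%, whose part in these values was not tested.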

How the results depend on the processing

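Over the alternatives, 39 summary values kept within their limits and 17 moved; of the values for single genes and peaks, 335 stayed the same, 15 passed the threshold only under the alternative, 55 lost it and 40 changed sign. Of the RNA calls, the replicate block gave 1 member (MTA2), and 1 with both libraries numbered 3 left out as well; among all genes the calls were 1 by edgeR, 140 by DESeq2, 2 without TMM, 13 without the filter, 2151 with the block, 8 without the libraries numbered 3 and 2584 with both changes. Leaving out 1 RNA library gave 0 members each time. For H3K18cr, TMM scaling in limma gave 0 member peaks and leaving out 1 library 0 to 13. Among all peaks DESeq2 called 3441 of the 15565 with an adjusted p (22.1%), against 5987 of 39011 by limma (15.3%). For H3K18ac, leaving out 1 library gave 4 to 13 and peaks in the gene interval alone 5 of 19; among all peaks edgeR called 8561 and the block 3238, against 5008. Scaling the colon ratios by total reads in peaks moved the members' promoter median from 1.93 to 0.48 (H3K18cr) and from 3.15 to 0.85 (H3K4me3), and the longest transcript moved the median level to 20.2 (DMSO), 20.8 (MS275) and 23.6 (colon) CPM per kb. For these the cause was not tested.

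Signs changed for RNA values close to 0. With the block NCOR1 was at -0.0088 and SIN3A at -0.0056. Without both libraries numbered 3, NCOR1 was at -0.11, SIN3B at 0.0084 and CHD4 at -0.0029, and with the block added at -0.11, 0.0028 and -0.0039. Leaving out 1 library gave -0.54 to 0.50 for NCOR1, -0.11 to 0.18 for TBL1XR1, -0.12 to 0.18 for SIN3A, -0.030 to 0.065 for KDM1A and -0.018 to 0.090 for CHD4. The difference between marks at the NCOR1 promoter was -0.0022 with TMM and -0.031 with edgeR, and at CHD4 -0.025 and -0.020. Leaving out 1 replicate number gave -0.49 to 0.43 for NCOR1, -0.78 to 0.20 for TBL1XR1, -0.25 to 0.50 for SIN3A, -0.32 to 0.0083 for SIN3B, -0.12 to 0.63 for RCOR1, -0.42 to 0.049 for KDM1A, -0.12 to 0.59 for MTA1, -0.37 to 0.37 for MTA2 and -0.47 to 0.42 for CHD4.

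In the ChIP data, same-numbered libraries did not deviate together throughout (correlations 0.113, 0.0799 and 0.248 for H3K18cr, -0.206, 0.0548 and -0.134 for H3K18ac), so the correlations did not show that the numbers pair the libraries, although the study used a paired test on them without stating what was paired. Both fits are therefore given where a call changed. With the replicate block 11 H3K18cr and 7 H3K18ac member peaks were called, against 10 and 9, and 16.1% and 8.29% of all peaks. The intron peaks had few reads, which limits what could be detected there.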
